A study of Saccharomyces cerevisiae with 24 samples.

Results

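The pheromone pathway and response genes described here are 10 genes of Saccharomyces cerevisiae, chosen by systematic name from the 6369 genes of the count table. They are the cell surface and fusion genes AGA1, FIG2 and FUS1, the signalling genes GPA1, STE4, SST2 and FUS3, and STE12, KAR4 and FAR1, which act in transcription and cell cycle arrest. RNA was sequenced from a strain lacking RPL22A (ΔRPL22A), a strain lacking RPL22B (ΔRPL22B) and a wild type (WT). RPL22A and RPL22B are paralogous genes for the large-subunit ribosomal protein Rpl22. All cells were in log phase (OD 0.6 to 0.8) and received cycloheximide, which holds ribosomes on mRNA, and the labels name no pheromone treatment. Extracts were separated on sucrose gradients, and each strain gave 4 RNA pools: input, monosomes, a low polysome fraction (light polysomes) and a high polysome fraction (heavy polysomes). There were 12 groups of 2 libraries, biological duplicates per the series design, and 24 libraries in all. Whether each duplicate was a separate culture for all its pools is not stated, so p-values measure the spread between these libraries.

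Haploid yeast cells of mating type a or alpha sense the peptide pheromone of the opposite type through a receptor coupled to a heterotrimeric G protein. Its free beta-gamma dimer starts a MAP kinase cascade that ends in Fus3, and Fus3 acts on the transcription factor Ste12 and on Far1, an inhibitor of the cell cycle. Ste12 binds pheromone response elements in the promoters of genes for adhesion, cell fusion and nuclear fusion, and also in those of genes that damp the signal.

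The promoters of the 10 genes were searched for TGAAACA, the core of the pheromone response element. Both strands were read from 250 bases before to 50 bases after the start codon. The motif was found in 5 of the 10 windows, against 450 of 6020 windows of the same length at protein-coding genes (7.475%). KAR4 and FUS1 each held 2 copies, as did 25 of the 6020 windows (0.4153%). The windows of the 5 genes with a match follow, with that of FIG2, whose window holds none and which of the 10 genes had the largest log2 fold change between the deletion strains in heavy polysomes. Sequences are from the RefSeq genome R64, 5′ to 3′ on the coding strand, and capitals mark TGAAACA or its reverse complement TGTTTCA. All 6 lie on the plus strand except SST2, which lies on the minus strand. The windows are chrXIV:703449-703748 for AGA1, chrIII:267184-267483 for FIG2, chrIII:71553-71852 for FUS1, chrXII:1041317-1041616 for SST2, chrII:192201-192500 for FUS3 and chrIII:27679-27978 for KAR4.
AGA1: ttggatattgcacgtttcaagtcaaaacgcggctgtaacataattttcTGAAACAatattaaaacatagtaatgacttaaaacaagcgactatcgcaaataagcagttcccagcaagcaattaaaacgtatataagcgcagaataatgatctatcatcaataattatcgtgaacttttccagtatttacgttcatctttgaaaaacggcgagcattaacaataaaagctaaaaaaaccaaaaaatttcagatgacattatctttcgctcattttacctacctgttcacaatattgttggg
FIG2: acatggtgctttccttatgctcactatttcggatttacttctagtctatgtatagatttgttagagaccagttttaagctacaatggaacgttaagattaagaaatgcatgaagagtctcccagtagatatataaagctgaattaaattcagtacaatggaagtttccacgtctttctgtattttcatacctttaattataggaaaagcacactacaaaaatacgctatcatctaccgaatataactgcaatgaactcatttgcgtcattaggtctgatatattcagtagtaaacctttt
FUS1: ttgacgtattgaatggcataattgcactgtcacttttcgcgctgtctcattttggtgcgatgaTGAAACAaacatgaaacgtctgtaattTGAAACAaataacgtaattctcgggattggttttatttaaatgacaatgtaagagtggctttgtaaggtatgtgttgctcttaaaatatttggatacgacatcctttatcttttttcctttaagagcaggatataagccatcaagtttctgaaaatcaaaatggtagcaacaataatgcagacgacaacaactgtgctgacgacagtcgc
SST2: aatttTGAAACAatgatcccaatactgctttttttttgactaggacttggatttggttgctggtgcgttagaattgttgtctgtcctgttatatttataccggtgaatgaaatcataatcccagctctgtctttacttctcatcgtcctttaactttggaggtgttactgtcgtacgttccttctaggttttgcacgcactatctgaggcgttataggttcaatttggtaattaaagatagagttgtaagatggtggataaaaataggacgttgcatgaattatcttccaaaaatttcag
FUS3: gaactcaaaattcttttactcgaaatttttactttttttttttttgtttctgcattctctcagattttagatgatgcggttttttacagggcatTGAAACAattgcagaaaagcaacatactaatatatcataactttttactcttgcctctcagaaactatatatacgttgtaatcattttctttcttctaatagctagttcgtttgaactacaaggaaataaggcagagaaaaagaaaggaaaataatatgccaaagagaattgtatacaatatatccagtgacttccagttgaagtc
KAR4: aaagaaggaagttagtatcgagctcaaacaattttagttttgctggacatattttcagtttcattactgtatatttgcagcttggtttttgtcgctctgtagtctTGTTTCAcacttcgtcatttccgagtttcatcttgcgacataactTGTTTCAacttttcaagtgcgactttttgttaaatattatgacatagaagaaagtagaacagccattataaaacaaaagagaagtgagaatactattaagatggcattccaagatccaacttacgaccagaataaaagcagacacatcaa
The match in AGA1 begins 202 bases before the start codon, that in FUS3 156 bases before it and that in SST2 245 bases before it. In FUS1 the 2 copies begin 187 and 160 bases before the start codon. Both copies in KAR4 read on the opposite strand, at 145 to 139 and 100 to 94 bases before the start codon. A match is a description of the sequence only, and no match says that these letters are not in this window. The 10 genes were chosen as pheromone pathway and response genes, so their share of matches does not bear on the difference between the strains.

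**Figure D1:**
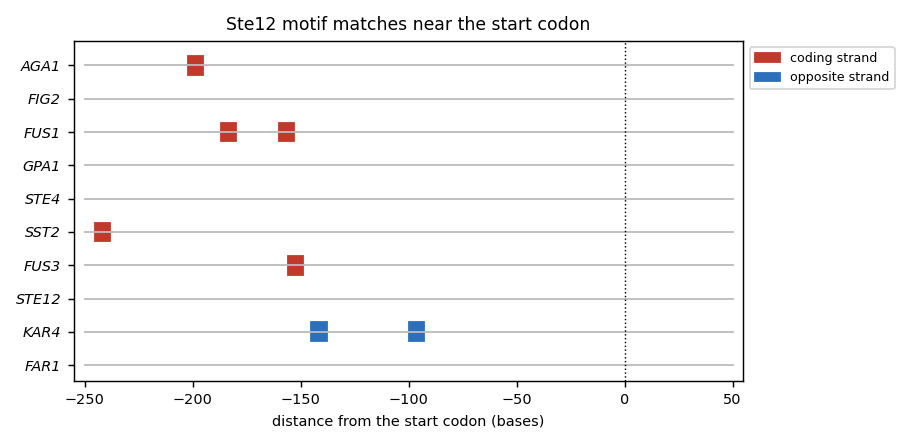
Positions of TGAAACA (red, coding strand) and its reverse complement (blue, opposite strand) in the window of each of the 10 genes, in bases from the start codon (dotted line). AGA1, FUS3 and SST2 hold 1 copy and FUS1 and KAR4 hold 2, all between 245 and 94 bases before the start codon.

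The libraries held 2435632 to 10947937 counts, of which 62.5% to 97.1% came from 7 entries of the ribosomal DNA, which left 314212 to 1950344 counts for all other genes. RPL22B had 0 counts in every ΔRPL22B library, 347 to 1940 counts in ΔRPL22A libraries and 58 to 460 in WT libraries. RPL22A had 0 to 3 counts per library in ΔRPL22A, 0 to 17 in ΔRPL22B and 0 to 9 in WT, so its count does not tell ΔRPL22A from the other strains. Mating-type genes differed between the strains. The 7 genes expressed in a cells summed to 111 counts in ΔRPL22A, 99 in ΔRPL22B and 6019 in WT, and the 5 genes expressed in alpha cells summed to 39772, 32338 and 134 counts in the same order. Both deletion strains thus carried alpha-type transcripts and WT carried a-type transcripts, and ΔRPL22A against ΔRPL22B is the comparison within a single mating type. Mating type and deletion cannot be told apart in either comparison with WT. No library correlated better with a library of another pool than with its own duplicate, but in 4 the best correlation with a library of another pool came close (0.923 to 0.947, against 0.931 to 0.963 with the duplicate): input replicate 1 and light polysome replicate 2 of ΔRPL22A, light polysome replicate 1 of ΔRPL22B, and heavy polysome replicate 2 of WT. Calls of ΔRPL22A against ΔRPL22B that change without these 4 libraries are given with each gene.

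All 10 genes passed the filter on low counts, which kept 5380 genes. Levels are in CPM, the count scaled to the size of its library, after TMM scaling, and that size includes the ribosomal DNA counts. Differences between strains are log2 fold changes with their standard error (SE) from edgeR's quasi-likelihood test, fitted to all 24 libraries, and a gene is called at a Benjamini-Hochberg adjusted p under 0.05 over all 5380 genes. In bulk RNA, fewer cells that express a gene and less of its RNA per cell cannot be told apart.

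**Figure D2:**
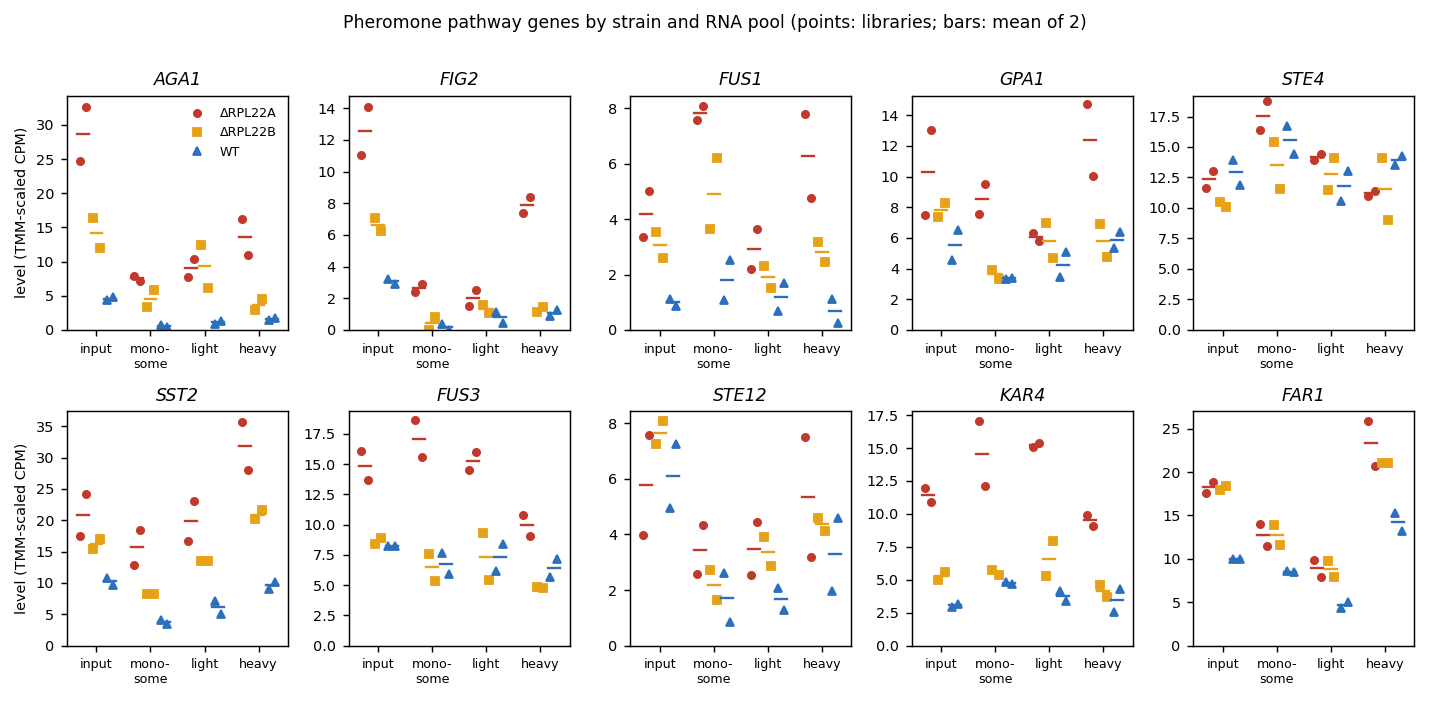
Level of each of the 10 genes in TMM-scaled CPM (vertical axis, from 0, own scale per gene) in the 4 RNA pools, with 1 point per library and a bar at the mean of 2. Red circles are ΔRPL22A, yellow squares ΔRPL22B and blue triangles WT. KAR4, FUS3 and SST2 lie higher in both ΔRPL22A libraries than in any ΔRPL22B or WT library of the same pool. SST2 was not called between the deletion strains.

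Several pheromone response genes had more mRNA in ΔRPL22A than in ΔRPL22B, and those called in more than 1 pool were the transcriptional regulator KAR4, the kinase gene FUS3 and the surface genes AGA1 and FIG2. In input 2 of the 10 genes were called, both higher in ΔRPL22A, where 5.26% of all tested genes were called, 2.32% higher and 2.94% lower. In monosomes 3 were called, all higher, against 3.1% of all genes called, 1.51% higher and 1.6% lower. Light polysomes had 2, both higher, against 7.19% of all genes, 4.2% higher and 2.99% lower. Heavy polysomes had 5, all higher, against 5.37% of all genes, 2.43% higher and 2.94% lower. The median log2 fold change of the 10 genes was 0.41 in input, 0.84 in monosomes, 0.33 in light polysomes and 1.10 in heavy polysomes. Over all tested genes the medians were -0.03, 0.00, -0.13 and 0.00 in the same pools. Both ΔRPL22A libraries lay above both ΔRPL22B libraries for 6 of the genes in input, 8 in monosomes, 3 in light polysomes and 7 in heavy polysomes, against 28.4%, 25.6%, 18.9% and 24.9% of all genes. None of the 10 had both ΔRPL22A libraries below both ΔRPL22B libraries in any pool. Of all genes 30.8%, 24.7%, 25.1% and 26.3% did from input to heavy polysomes. Of the 12 calls, all but that of FIG2 in heavy polysomes were lost in some fit that left out a compared library. For each of the 12, both ΔRPL22A libraries lay above both ΔRPL22B libraries. Leaving out 1 library could thus hardly turn the direction, and the kept direction adds no evidence. The share of counts on the ribosomal DNA also differed, at 85.5% and 93.0% in ΔRPL22A monosomes against 95.3% and 97.1% in ΔRPL22B monosomes, and at 81.6% and 75.9% in ΔRPL22A heavy polysomes against 92.7% and 90.0% in ΔRPL22B heavy polysomes. Its part in these differences was not tested, and with those rows left out of the scaling and the test the 10 genes kept their 3 calls in monosomes and 5 in heavy polysomes.

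**Figure D3:**
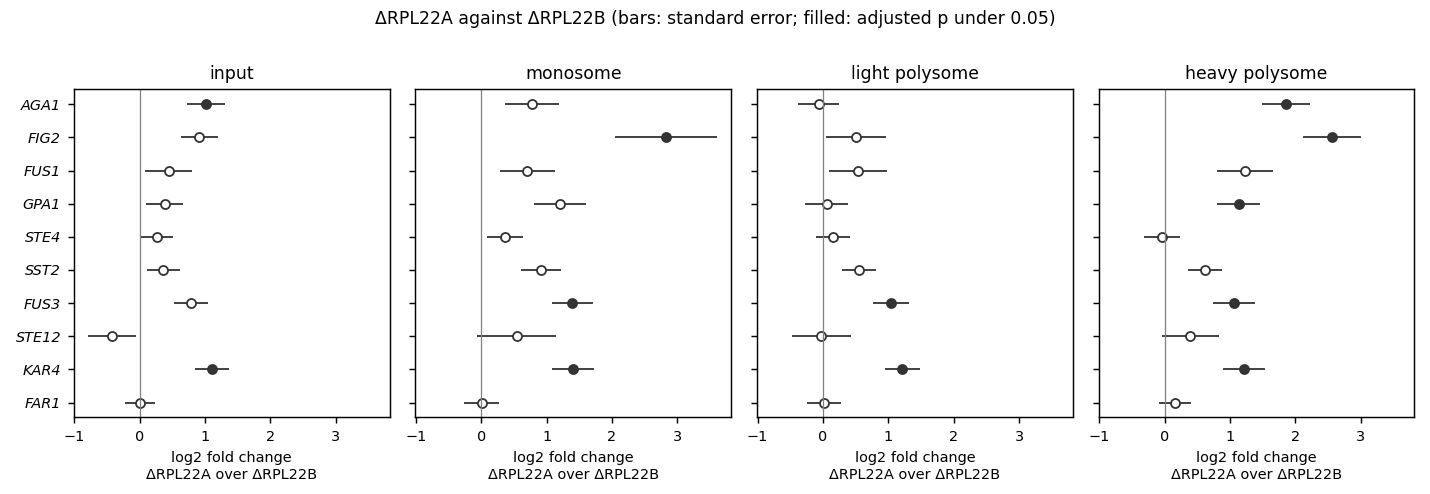
Log2 fold change of ΔRPL22A over ΔRPL22B for the 10 genes in each RNA pool, with bars of 1 SE and filled points for an adjusted p under 0.05. The filled points number 2, 3, 2 and 5 from input to heavy polysomes and all lie right of 0, while STE4 and FAR1 stay between -0.03 and 0.36.

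AGA1 (YNR044W, chrXIV:703699-705876, R64, plus strand, 725 codons) encodes the anchor subunit of a-agglutinin, a cell wall glycoprotein of mating adhesion. In input AGA1 had 24.8 and 32.7 CPM in ΔRPL22A, 16.4 and 12.1 CPM in ΔRPL22B and 4.35 and 4.77 CPM in WT. In monosomes it had 7.89 and 7.2 CPM in ΔRPL22A, 3.33 and 5.79 CPM in ΔRPL22B and 0.72 and 0.423 CPM in WT. The strains did not overlap in either pool, with ΔRPL22A highest and WT lowest. Light polysomes held 7.72 and 10.4 CPM in ΔRPL22A, 12.5 and 6.16 CPM in ΔRPL22B and 0.92 and 1.26 CPM in WT of AGA1. Heavy polysomes held 16.3 and 10.9 CPM in ΔRPL22A, 2.87 and 4.53 CPM in ΔRPL22B and 1.41 and 1.78 CPM in WT. Both deletion strains were above WT in every pool, and ΔRPL22A overlapped ΔRPL22B in light polysomes alone. Between the deletion strains the log2 fold change of ΔRPL22A over ΔRPL22B was 1.01 ± 0.29 in input and 1.86 ± 0.37 in heavy polysomes, both called (adjusted p = 0.0376 and 0.0029). It was 0.77 ± 0.41 in monosomes and -0.07 ± 0.32 in light polysomes, where AGA1 was not called. The call in input was lost without any of the 4 libraries, with adjusted p of 0.109 and 0.124 without ΔRPL22A replicates 1 and 2 and 0.139 and 0.288 without ΔRPL22B replicates 1 and 2. That in heavy polysomes was lost at 0.114 without ΔRPL22A replicate 1 and 0.0943 without ΔRPL22B replicate 1. The value in light polysomes turned to 0.34 without the 4 libraries nearest to another pool.

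FIG2 (YCR089W, chrIII:267434-272263, plus strand, 1609 codons) encodes a large cell wall adhesin of mating cells, and had 11 and 14.1 CPM in ΔRPL22A, 7.06 and 6.24 CPM in ΔRPL22B and 3.24 and 2.89 CPM in WT in input. In heavy polysomes FIG2 had 7.4 and 8.42 CPM in ΔRPL22A, 1.15 and 1.44 CPM in ΔRPL22B and 0.847 and 1.27 CPM in WT. The ΔRPL22A libraries stood above all others in both pools, while ΔRPL22B and WT overlapped in heavy polysomes. Monosomes held few reads of FIG2, with counts of 15 and 10 in ΔRPL22A, 0 and 2 in ΔRPL22B and 4 and 0 in WT. Light polysomes held 1.5 and 2.5 CPM in ΔRPL22A, 1.59 and 1.05 CPM in ΔRPL22B and 1.15 and 0.422 CPM in WT, where ΔRPL22A and ΔRPL22B overlapped. The log2 fold change of ΔRPL22A over ΔRPL22B in heavy polysomes was 2.56 ± 0.44 (adjusted p = 0.00087). In input it was 0.91 ± 0.29 and was not called (adjusted p = 0.0575), and FIG2 was called there with relative log expression scaling, without the ribosomal DNA rows, without the low-count filter, with only the compared groups and without the 4 libraries nearest to another pool. In monosomes FIG2 was called (adjusted p = 0.0399) on a total of 25 counts in ΔRPL22A against 2 in ΔRPL22B, a ratio of 7.39 after scaling with an exact 95% counting interval of 1.84 to 64.4. That call was lost at 0.114 and 0.148 without ΔRPL22A replicates 1 and 2 and 0.503 without ΔRPL22B replicate 1, and with DESeq2 (adjusted p = 0.122).

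FUS1 (YCL027W, chrIII:71803-73341, plus strand, 512 codons) encodes a membrane protein of the fusion site and is a classic reporter of the pathway. FUS1 had 3.37 and 5.02 CPM in ΔRPL22A, 3.53 and 2.61 CPM in ΔRPL22B and 1.11 and 0.868 CPM in WT in input. In monosomes it had 7.56 and 8.07 CPM in ΔRPL22A, 3.63 and 6.2 CPM in ΔRPL22B and 1.08 and 2.54 CPM in WT. Heavy polysomes held 7.79 and 4.78 CPM in ΔRPL22A, 3.16 and 2.47 CPM in ΔRPL22B and 1.13 and 0.255 CPM in WT. Both deletion strains were above WT in these 3 pools, and ΔRPL22A did not overlap ΔRPL22B in monosomes and heavy polysomes. FUS1 was not called between the deletion strains, with log2 fold changes of 0.44 ± 0.36 in input, 0.70 ± 0.42 in monosomes, 0.53 ± 0.45 in light polysomes and 1.23 ± 0.42 in heavy polysomes (adjusted p = 0.457, 0.404, 0.516 and 0.0905). In heavy polysomes it was called with only the compared groups (adjusted p = 0.017) and without the 4 libraries nearest to another pool (adjusted p = 0.0137).

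GPA1 (YHR005C, chrVIII:113499-114917, minus strand, 472 codons) encodes the G protein alpha subunit, which holds the beta-gamma dimer inactive until a receptor binds pheromone. GPA1 had 7.52 and 13 CPM in ΔRPL22A, 7.36 and 8.28 CPM in ΔRPL22B and 4.55 and 6.51 CPM in WT in input. In monosomes it had 7.56 and 9.51 CPM in ΔRPL22A, 3.93 and 3.31 CPM in ΔRPL22B and 3.33 and 3.39 CPM in WT. In heavy polysomes it had 14.7 and 10 CPM in ΔRPL22A, 6.9 and 4.73 CPM in ΔRPL22B and 5.37 and 6.37 CPM in WT. ΔRPL22A was above both other strains in monosomes and heavy polysomes, where ΔRPL22B and WT overlapped. The log2 fold change of ΔRPL22A over ΔRPL22B was 1.13 ± 0.33 in heavy polysomes, where GPA1 was called (adjusted p = 0.0419). In monosomes it was 1.2 ± 0.40 and was not called (adjusted p = 0.101), although it was with only the compared groups (adjusted p = 0.0311) and without the 4 libraries nearest to another pool (adjusted p = 0.0293). The call in heavy polysomes was lost at 0.429 without ΔRPL22A replicate 1 and 0.12 and 0.345 without ΔRPL22B replicates 1 and 2.

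STE4 (YOR212W, chrXV:742910-744181, plus strand, 423 codons), which encodes the beta subunit that carries the signal onward, lay between 9.05 and 18.7 CPM over all 24 libraries. STE4 had 11.7 and 13 CPM in ΔRPL22A, 10.5 and 10.1 CPM in ΔRPL22B and 14 and 11.9 CPM in WT in input. Heavy polysomes held 11 and 11.4 CPM in ΔRPL22A, 14.1 and 9.05 CPM in ΔRPL22B and 13.6 and 14.3 CPM in WT, where both ΔRPL22A libraries were below both WT libraries and overlapped ΔRPL22B. Between the deletion strains its log2 fold changes were 0.26 ± 0.25, 0.36 ± 0.28, 0.15 ± 0.26 and -0.03 ± 0.27 from input to heavy polysomes, and none was called. The sign in heavy polysomes turned with relative log expression scaling, without the ribosomal DNA rows and with DESeq2.

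SST2 (YLR452C, chrXII:1039270-1041366, minus strand, 698 codons) encodes the regulator of G protein signalling that returns Gpa1 to its inactive form and lets cells recover. SST2 had 17.5 and 24.2 CPM in ΔRPL22A, 15.4 and 17 CPM in ΔRPL22B and 10.8 and 9.69 CPM in WT in input. In monosomes it had 12.9 and 18.4 CPM in ΔRPL22A, 8.16 and 8.27 CPM in ΔRPL22B and 4.05 and 3.39 CPM in WT. In heavy polysomes it had 35.7 and 28 CPM in ΔRPL22A, 20.1 and 21.6 CPM in ΔRPL22B and 9.04 and 10.2 CPM in WT. The 3 strains did not overlap in these 3 pools, in the order ΔRPL22A, ΔRPL22B and WT. Light polysomes held 16.7 and 23.1 CPM in ΔRPL22A, 13.4 and 13.5 CPM in ΔRPL22B and 7.13 and 5.06 CPM in WT, with the same order. The log2 fold changes of ΔRPL22A over ΔRPL22B were 0.36 ± 0.25, 0.91 ± 0.31, 0.55 ± 0.26 and 0.62 ± 0.26 from input to heavy polysomes, and SST2 was not called in any pool (lowest adjusted p = 0.105, in monosomes). In monosomes it was called with only the compared groups (adjusted p = 0.0464), and without the 4 libraries nearest to another pool it was called in monosomes (adjusted p = 0.0331) and heavy polysomes (adjusted p = 0.0398).

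FUS3 (YBL016W, chrII:192451-193512, plus strand, 353 codons) encodes the MAP kinase at the end of the cascade. FUS3 had 16.1 and 13.7 CPM in ΔRPL22A, 8.44 and 8.86 CPM in ΔRPL22B and 8.2 and 8.25 CPM in WT in input. In monosomes it had 18.7 and 15.6 CPM in ΔRPL22A, 7.56 and 5.38 CPM in ΔRPL22B and 7.65 and 5.92 CPM in WT. Both ΔRPL22A libraries were above all others in these pools, and ΔRPL22B overlapped WT in monosomes. Light polysomes held 14.5 and 16 CPM in ΔRPL22A, 9.28 and 5.41 CPM in ΔRPL22B and 6.21 and 8.43 CPM in WT of FUS3. Heavy polysomes held 10.8 and 9.1 CPM in ΔRPL22A, 4.89 and 4.73 CPM in ΔRPL22B and 5.65 and 7.14 CPM in WT. Again ΔRPL22A stood above both other strains. FUS3 was called in 3 pools, with log2 fold changes of ΔRPL22A over ΔRPL22B of 1.39 ± 0.31, 1.04 ± 0.28 and 1.06 ± 0.31 in monosomes, light polysomes and heavy polysomes (adjusted p = 0.0119, 0.0197 and 0.0433). In input it was 0.78 ± 0.26 (adjusted p = 0.0708), which was not called, although it was with relative log expression scaling, without the ribosomal DNA rows and with only the compared groups. The call in monosomes was lost at 0.112 without ΔRPL22A replicate 1 and 0.105 and 0.147 without ΔRPL22B replicates 1 and 2, that in light polysomes at 0.0633 and 0.0922 without ΔRPL22A replicates 1 and 2 and 0.122 without ΔRPL22B replicate 2 and with only the compared groups (adjusted p = 0.393), and that in heavy polysomes at 0.311 and 0.0695 without ΔRPL22A replicates 1 and 2 and 0.233 and 0.233 without ΔRPL22B replicates 1 and 2.

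KAR4 (YCL055W, chrIII:27929-28936, plus strand, 335 codons) encodes a regulator that acts with Ste12 on genes of nuclear fusion, and is made as a longer form in growing cells and a shorter form in response to pheromone, which these counts do not separate. KAR4 had 12 and 10.9 CPM in ΔRPL22A, 5 and 5.59 CPM in ΔRPL22B and 2.94 and 3.18 CPM in WT in input. In monosomes it had 17.1 and 12.1 CPM in ΔRPL22A, 5.75 and 5.38 CPM in ΔRPL22B and 4.86 and 4.65 CPM in WT. Light polysomes held 15.1 and 15.4 CPM in ΔRPL22A, 5.25 and 7.96 CPM in ΔRPL22B and 4.14 and 3.37 CPM in WT. In all 3 pools ΔRPL22A was above ΔRPL22B, and ΔRPL22B was above WT. Heavy polysomes held 9.93 and 9.1 CPM in ΔRPL22A, 4.6 and 3.7 CPM in ΔRPL22B and 2.54 and 4.33 CPM in WT of KAR4, where ΔRPL22B and WT overlapped. KAR4 was called between the deletion strains in all 4 pools, with a log2 fold change of ΔRPL22A over ΔRPL22B of 1.11 ± 0.26 in input, 1.4 ± 0.32 in monosomes, 1.21 ± 0.27 in light polysomes and 1.22 ± 0.32 in heavy polysomes (adjusted p = 0.0125, 0.0119, 0.00606 and 0.0218). The call was lost in input at 0.156 without ΔRPL22A replicate 1 and 0.181 and 0.0988 without ΔRPL22B replicates 1 and 2, and in monosomes at 0.17 without ΔRPL22A replicate 1 and 0.139 and 0.104 without ΔRPL22B replicates 1 and 2. It was lost in heavy polysomes at 0.196 without ΔRPL22A replicate 1 and 0.107 and 0.216 without ΔRPL22B replicates 1 and 2. In light polysomes it was lost at 0.0636 without ΔRPL22B replicate 1, with only the compared groups (adjusted p = 0.296) and without the 4 libraries nearest to another pool (adjusted p = 0.0525).

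STE12 (YHR084W, chrVIII:274174-276240, plus strand, 688 codons), the gene of the transcription factor itself, had 4 and 7.58 CPM in ΔRPL22A, 7.26 and 8.06 CPM in ΔRPL22B and 4.96 and 7.23 CPM in WT in input. Heavy polysomes held 7.5 and 3.18 CPM in ΔRPL22A, 4.6 and 4.11 CPM in ΔRPL22B and 1.98 and 4.59 CPM in WT of STE12. ΔRPL22A overlapped both other strains in these pools. Its log2 fold changes of ΔRPL22A over ΔRPL22B were -0.43 ± 0.36, 0.54 ± 0.60, -0.02 ± 0.45 and 0.40 ± 0.44 from input to heavy polysomes, with none called (lowest adjusted p = 0.486, in input). The sign in light polysomes turned with relative log expression scaling, without the ribosomal DNA rows and with DESeq2.

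FAR1 (YJL157C, chrX:123836-126328, minus strand, 830 codons) encodes the inhibitor that arrests the cell cycle in G1 and helps to orient growth toward a partner. FAR1 had 17.6 and 18.9 CPM in ΔRPL22A, 18 and 18.4 CPM in ΔRPL22B and 10 and 9.98 CPM in WT in input. Heavy polysomes held 25.9 and 20.7 CPM in ΔRPL22A, 21 and 21 CPM in ΔRPL22B and 15.2 and 13.3 CPM in WT. The deletion strains overlapped in every pool, and both lay above WT in every pool. Between the deletion strains the log2 fold changes of FAR1 were 0.00 ± 0.23, 0.01 ± 0.27, 0.01 ± 0.26 and 0.16 ± 0.24 from input to heavy polysomes, none of them called. The sign in monosomes turned with relative log expression scaling and with DESeq2.

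Against WT, which carries the difference in mating type, more of the 10 genes were called in ΔRPL22A than in ΔRPL22B. The same held for all tested genes, so this contrast does not set the 10 apart. The comparisons share the WT libraries, and each is given with its own values. ΔRPL22A had 6 genes called in input, 7 in monosomes, 4 in light polysomes and 5 in heavy polysomes, all of them higher. Over all tested genes 4.65%, 5.48%, 5.39% and 3.29% were called in these pools. The shares called higher were 2.16%, 2.73%, 3.42% and 1.39%, and those called lower 2.49%, 2.75%, 1.97% and 1.9%. ΔRPL22B had 1 gene called in each of input, monosomes and light polysomes, AGA1 each time and higher, against 0.335%, 0.353% and 0.353% of all genes called. In heavy polysomes 0 of the 10 genes were called in ΔRPL22B by edgeR's quasi-likelihood test, against 0.316% of all genes, and 0 by DESeq2. At an unadjusted p under 0.05 in edgeR's test stood 4 of the 10, against 4.85% of all genes. The median log2 fold change over WT was 0.96, 1.47, 1.09 and 1.28 in ΔRPL22A and 0.73, 0.24, 0.82 and 0.34 in ΔRPL22B from input to heavy polysomes. Medians over all genes lay between -0.05 and 0.03 in these comparisons. Both ΔRPL22A libraries were above both WT libraries for 8 genes in input, 8 in monosomes, 10 in light polysomes and 8 in heavy polysomes, against 27.2%, 25.2%, 24% and 24.1% of all genes. For ΔRPL22B this held for 9, 5, 5 and 4 genes, against 18.4%, 15.4%, 17% and 19.4% of all genes.

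**Figure D4:**
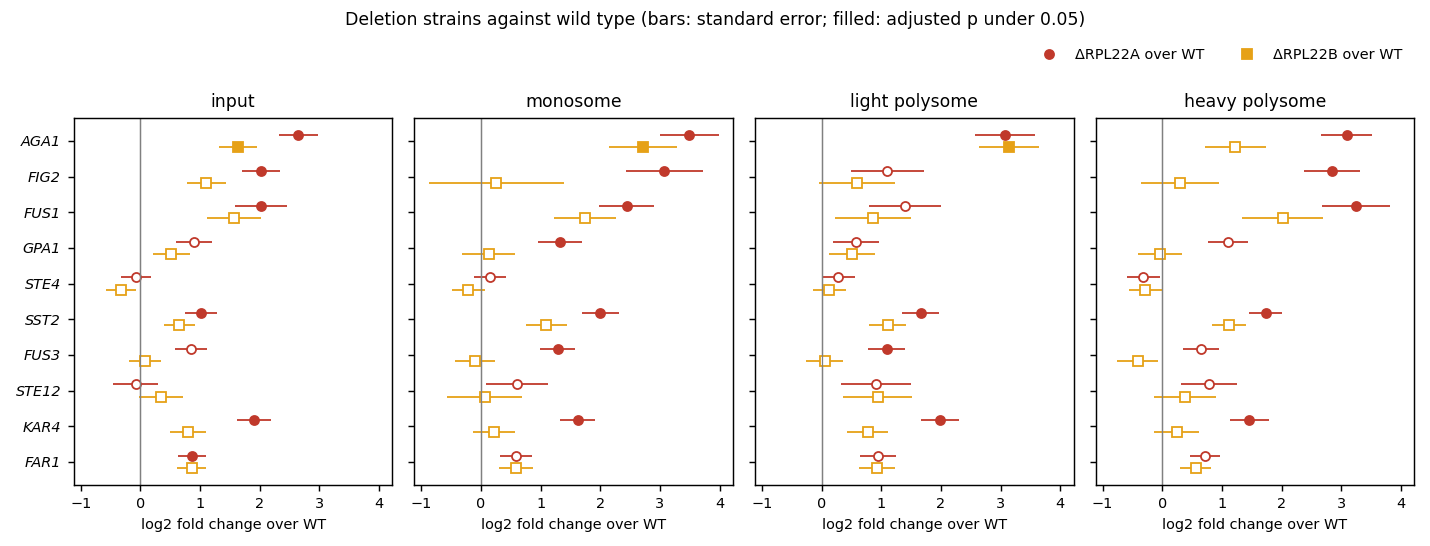
Log2 fold change over WT of the 10 genes in each RNA pool, in red for ΔRPL22A and in yellow for ΔRPL22B, with bars of 1 SE and filled points for an adjusted p under 0.05. ΔRPL22A has 6, 7, 4 and 5 filled points from input to heavy polysomes, and the only filled points of ΔRPL22B are those of AGA1 in input, monosomes and light polysomes.

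In input, monosomes and heavy polysomes of ΔRPL22A the surface and fusion genes AGA1, FIG2 and FUS1 had the largest log2 fold changes over WT among the 10. The log2 fold change of AGA1 over WT in ΔRPL22A was 2.65 ± 0.32 in input, 3.49 ± 0.49 in monosomes, 3.07 ± 0.50 in light polysomes and 3.09 ± 0.43 in heavy polysomes (adjusted p = 2.55e-06, 3.8e-05, 0.000229 and 2.33e-05). In ΔRPL22B the values for AGA1 were 1.64 ± 0.32, 2.72 ± 0.56, 3.14 ± 0.50 and 1.23 ± 0.51 (adjusted p = 0.00745, 0.0154, 0.000247 and 0.958). AGA1 thus stood above WT in both alpha-type strains, while its partner AGA2, an a-specific gene, had 2 counts over the 8 libraries of ΔRPL22A, 2 over those of ΔRPL22B and 209 over those of WT. The AGA1 calls of ΔRPL22A were kept in each fit without a library, and those of ΔRPL22B were lost in input at 0.307 without ΔRPL22B replicate 1 and 0.363 and 0.169 without WT replicates 1 and 2, in monosomes at 0.554 without ΔRPL22B replicate 2 and 0.682 and 0.0797 without WT replicates 1 and 2 and in light polysomes at 0.104 without WT replicate 1. FUS1 in ΔRPL22A had log2 fold changes over WT of 2.02 ± 0.44 in input, 2.44 ± 0.46 in monosomes and 3.24 ± 0.57 in heavy polysomes, all called (adjusted p = 0.00596, 0.00133 and 0.000615). In ΔRPL22B the values for FUS1 in these pools were 1.58 ± 0.45, 1.74 ± 0.52 and 2.02 ± 0.68, and none was called. WT heavy polysomes held 5 counts of FUS1 over 2 libraries. Without single libraries the FUS1 value of ΔRPL22A over WT in heavy polysomes ran from 2.52 to 4.59. FIG2 in ΔRPL22A was called in input at 2.02 ± 0.32, in monosomes at 3.08 ± 0.64 and in heavy polysomes at 2.85 ± 0.47 (adjusted p = 0.000146, 0.00364 and 0.000268). In ΔRPL22B FIG2 differed from WT by 1.10 ± 0.33 in input and 0.29 ± 0.65 in heavy polysomes, neither called. Without single WT libraries the FUS1 calls were lost in input at 0.0644 and 0.085 without WT replicates 1 and 2 and in monosomes at 0.212 without WT replicate 1, and the FIG2 call in monosomes at 0.0777 without WT replicate 1. Without that library the log2 fold change over WT in monosomes was 1.61 for FUS1, and for FIG2 it was 7.06 against a WT library with 0 counts, which is no bound, so the size of the FIG2 difference in monosomes is not fixed by these data.

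Among the signalling genes SST2 was called over WT in every pool of ΔRPL22A, at 1.02 ± 0.26 in input, 2.0 ± 0.31 in monosomes, 1.66 ± 0.30 in light polysomes and 1.73 ± 0.28 in heavy polysomes (adjusted p = 0.02, 0.000183, 0.000982 and 0.000241). In ΔRPL22B the SST2 values were 0.66 ± 0.26, 1.09 ± 0.34, 1.10 ± 0.31 and 1.12 ± 0.29, with no call. FUS3 was called in ΔRPL22A in monosomes at 1.29 ± 0.29 and in light polysomes at 1.09 ± 0.30 (adjusted p = 0.00743 and 0.0293), and GPA1 in monosomes at 1.33 ± 0.37 (adjusted p = 0.029). In ΔRPL22B, FUS3 differed from WT by -0.10 ± 0.33 in monosomes and 0.05 ± 0.31 in light polysomes and GPA1 by 0.13 ± 0.44 in monosomes. KAR4 was called in every pool of ΔRPL22A, at 1.90 ± 0.29 in input, 1.62 ± 0.30 in monosomes, 1.99 ± 0.32 in light polysomes and 1.46 ± 0.33 in heavy polysomes (adjusted p = 7.9e-05, 0.00106, 0.000216 and 0.00886). In ΔRPL22B the KAR4 values were 0.80 ± 0.30, 0.22 ± 0.35, 0.77 ± 0.34 and 0.24 ± 0.38, none called. FAR1 was called in input of ΔRPL22A at 0.87 ± 0.24 (adjusted p = 0.033) and had a like value of 0.86 ± 0.24 in ΔRPL22B (adjusted p = 0.309). STE4 and STE12 were not called against WT in either strain or any pool. Among the calls of ΔRPL22A, that of SST2 in input was lost at 0.112 without ΔRPL22A replicate 2 and 0.12 and 0.188 without WT replicates 1 and 2, and that of FAR1 in input at 0.151 and 0.0737 without ΔRPL22A replicates 1 and 2 and 0.19 and 0.188 without WT replicates 1 and 2 and without the low-count filter (adjusted p = 0.0587). Those of FUS3 were lost in monosomes at 0.0905 without ΔRPL22A replicate 1 and 0.0755 and 0.0667 without WT replicates 1 and 2 and in light polysomes at 0.0675 and 0.119 without ΔRPL22A replicates 1 and 2 and 0.357 and 0.0706 without WT replicates 1 and 2, and also in light polysomes with only the compared groups (adjusted p = 0.0517). The GPA1 call was lost at 0.0749 and 0.19 without ΔRPL22A replicates 1 and 2 and 0.261 and 0.0911 without WT replicates 1 and 2, and the KAR4 call in monosomes at 0.0584 without WT replicate 1 and in heavy polysomes at 0.102 without ΔRPL22A replicate 1 and 0.165 without WT replicate 1 and with only the compared groups (adjusted p = 0.125).

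In input of ΔRPL22A, per kb of coding length, FUS3 averaged 14 ± 1.59 CPM per kb (SD, n = 2), AGA1 13.2 ± 2.57, KAR4 11.3 ± 0.769, SST2 9.96 ± 2.25 and STE4 9.71 ± 0.752 CPM per kb, and neighbours in this order overlapped. FAR1 and GPA1 followed at 7.32 ± 0.36 and 7.24 ± 2.74 CPM per kb. FAR1 lay below STE4 in both libraries, while GPA1 overlapped both. STE12, FUS1 and FIG2 were lowest at 2.8 ± 1.23, 2.72 ± 0.758 and 2.6 ± 0.446 CPM per kb and overlapped each other. In input of ΔRPL22B the levels of FUS3, STE4 and SST2 were 8.14 ± 0.281, 8.09 ± 0.225 and 7.72 ± 0.536 CPM per kb, and AGA1 stood at 6.53 ± 1.41 and KAR4 at 5.26 ± 0.412 CPM per kb. In WT, STE4 and FUS3 led with 10.2 ± 1.17 and 7.74 ± 0.0319 CPM per kb, AGA1 was eighth with 2.09 ± 0.137, and FUS1 and FIG2 were lowest with 0.644 ± 0.113 and 0.635 ± 0.0506 CPM per kb. The place of AGA1 and KAR4 in the order thus differed between the strains, while FUS1 and FIG2 were the lowest of the 10 in ΔRPL22B and WT and overlapped STE12 in ΔRPL22A. The summed level of the 10 genes in input was 125.6 and 153.1 CPM in ΔRPL22A, 98.9 and 97.2 CPM in ΔRPL22B and 64.2 and 65.2 CPM in WT.

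The genes also differed in how their mRNA was spread over the gradient. Averaged over the 3 strains, 8 of the 10 genes were called between monosomes and input, where 49.8% of all genes were called, 25.4% higher and 24.4% lower. FIG2 was lower in monosomes by a log2 ratio of -3.25 ± 0.31 (-4.69 to -2.86 without single libraries), AGA1 by -2.11 ± 0.23, STE12 by -1.34 ± 0.27, SST2 by -0.94 ± 0.17, GPA1 by -0.69 ± 0.20 and FAR1 by -0.41 ± 0.15. FUS1 and STE4 were higher in monosomes, at 0.68 ± 0.27 and 0.40 ± 0.15. Light polysomes against input gave 5 calls among the 10, where 55% of all genes were called, 28.6% higher and 26.5% lower. All 5 were lower: FIG2 at -2.26 ± 0.25, AGA1 at -1.46 ± 0.23, STE12 at -1.23 ± 0.26, FAR1 at -1.05 ± 0.15 and GPA1 at -0.53 ± 0.19. Heavy polysomes against input gave 4 calls, against 38.1% of all genes (19.5% higher and 18.5% lower), with FIG2 at -1.50 ± 0.25, AGA1 at -1.48 ± 0.22 and FUS3 at -0.59 ± 0.17 lower and FAR1 at 0.36 ± 0.14 higher. FIG2 and AGA1 were thus lower in all 3 gradient pools than in input. The share of genes called over the whole table was of the same order, so these counts do not set the 10 genes apart. Over 5299 genes, Spearman's correlation of codon number with the log2 ratio to input was -0.46 in monosomes, -0.77 in light polysomes and 0.08 in heavy polysomes. In genes of over 651 codons the median log2 ratios were -0.48, -0.75 and 0.09. FIG2, AGA1, STE12, SST2 and FAR1 have 1609, 725, 688, 698 and 830 codons, and GPA1 has 472. The part of length in these ratios was not tested. FAR1 in monosomes was not called without ΔRPL22A or ΔRPL22B monosome replicate 2 (adjusted p = 0.0536 and 0.0561). The calls of FUS1 and STE4 in monosomes, GPA1 in light polysomes and FAR1 in heavy polysomes were lost in 8, 7, 5 and 10 of 12 fits without a library. FUS1 kept its call only without replicate 1 of ΔRPL22B input, ΔRPL22B monosomes or WT monosomes and without replicate 2 of ΔRPL22A input, and its adjusted p reached 0.136. The highest adjusted p was 0.142 for STE4, 0.113 for GPA1 and 0.142 for FAR1, and DESeq2 did not call FAR1 in heavy polysomes (adjusted p = 0.0741).

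Heavy polysomes against monosomes gave 7 calls among the 10 genes, where 48.9% of all genes were called, 24.4% higher and 24.6% lower. FIG2 was higher in heavy polysomes by 1.75 ± 0.42, SST2 by 1.24 ± 0.17, STE12 by 0.78 ± 0.31, FAR1 by 0.77 ± 0.15 and GPA1 by 0.68 ± 0.22 (adjusted p = 0.00112, 2.03e-06, 0.0364, 0.000136 and 0.0119). KAR4 and FUS3 were lower in heavy polysomes, at -0.51 ± 0.19 and -0.45 ± 0.18 (adjusted p = 0.0301 and 0.043). FUS1 had the lowest ratio of the 10, -0.70 ± 0.32, and was not called (adjusted p = 0.0704). The FIG2 ratio rests on few monosome counts, 0 and 2 in ΔRPL22B and 4 and 0 in WT, and ranged from 1.36 to 3.19 in the fits without a library, the highest without ΔRPL22B monosome replicate 2, and was also over 3 without WT monosome replicate 1. The 5 genes that were higher have 472 to 1609 codons, KAR4 and FUS3 have 335 and 353, and FUS1 has 512. Over 5299 tested genes with an annotated length, the Spearman correlation of the number of codons with this log2 ratio was 0.53, and the median log2 ratio was -0.63 in genes of up to 267 codons and 0.62 in genes of over 651 codons. The genes of that correlation share libraries and are not independent replicates, and the part of length in the ratios of the 10 genes was not tested. Within strains the same ratio gave 4 calls in ΔRPL22A, against 25.7% of all genes, with SST2 at 1.05 ± 0.27, FIG2 at 1.58 ± 0.38 and FAR1 at 0.87 ± 0.25 higher and FUS3 at -0.78 ± 0.28 lower. SST2 was the only call in ΔRPL22B at 1.34 ± 0.30, against 15% of all genes. In WT, SST2 at 1.32 ± 0.33 and FAR1 at 0.74 ± 0.27 were called, against 22.3% of all genes. The averaged calls of STE12, KAR4 and FUS3 were lost with DESeq2 (adjusted p = 0.0509, 0.0602 and 0.0766) and in 7, 6 and 7 of 12 fits without a library (highest adjusted p = 0.227, 0.111 and 0.187). The STE12 ratio ranged from 0.51 without ΔRPL22A heavy polysome replicate 1 to 1.23 without WT monosome replicate 1, and its call was also lost without the 4 libraries nearest to another pool (adjusted p = 0.154). Within strains, the SST2 call was lost in ΔRPL22A at an adjusted p of 0.116 without monosome replicate 1 and 0.0869 without heavy polysome replicate 1, in ΔRPL22B at 0.0591 without monosome replicate 1 and in WT at 0.0534 without heavy polysome replicate 2, and the FAR1 call in WT and the FUS3 call in ΔRPL22A were lost in all 4 fits (highest adjusted p = 0.193 and 0.25). In ΔRPL22A the FIG2 call was lost at 0.0701 without monosome replicate 1, and the FAR1 call at 0.0967 without monosome replicate 2 and 0.142 without heavy polysome replicate 1.

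**Figure D5:**
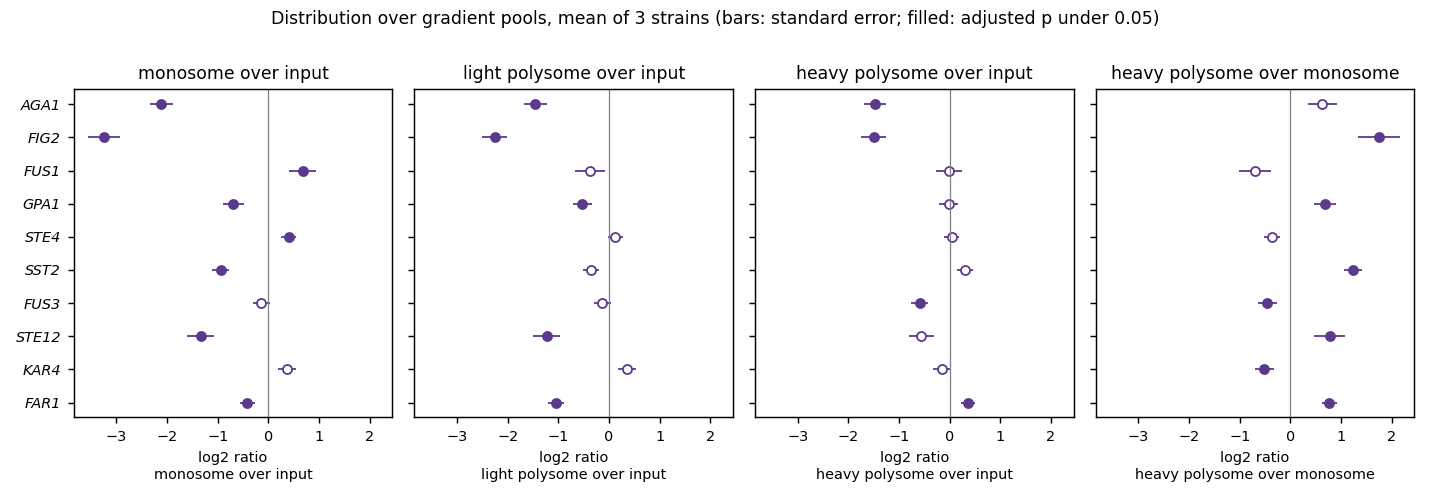
Log2 ratio between RNA pools for the 10 genes, averaged over the 3 strains, with bars of 1 SE and filled points for an adjusted p under 0.05. FIG2 and AGA1 lie left of 0 in each comparison with input, and between heavy polysomes and monosomes FIG2 at 1.75 (1.36 to 3.19 without single libraries) and SST2 at 1.24 lie farthest right.

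Whether the spread over the gradient differed between the deletion strains was tested as an interaction. For the ratio of heavy polysomes to input, 0 of the 10 genes and 0% of all tested genes were called by edgeR's quasi-likelihood test. DESeq2 called 0 of the 10. At an unadjusted p under 0.05 in edgeR's test stood 1 of the 10, against 12.3% of all genes, so this count does not set the 10 apart. The 1 gene was FIG2, whose ratio of heavy polysomes to input was higher in ΔRPL22A than in ΔRPL22B by 1.64 ± 0.54 (adjusted p = 0.293). AGA1 followed with 0.85 ± 0.47 (adjusted p = 0.434), and KAR4, called in all pools, had 0.11 ± 0.41. For the ratio of heavy polysomes to monosomes 0 genes were called, 0% of all genes, and DESeq2 called 0 of the 10. At an unadjusted p under 0.05 in edgeR's test stood 0 of the 10, against 6.52% of all genes. The values of the 10 ran from -0.39 for STE4 to 1.09 for AGA1. A p above the threshold does not show that the ratios were alike.

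Other genes of the pathway were compared between the deletion strains as lists. The median log2 fold change of 19 further signalling genes, all tested, was -0.29, 0.05, -0.17 and 0.15 from input to heavy polysomes. DIG1, which encodes an inhibitor of Ste12, was among the genes of this list called higher in ΔRPL22A in monosomes, at 1.41 ± 0.39 (adjusted p = 0.0373). STE18, the gene of the G protein gamma subunit, was at 1.29 ± 0.42 in input and was not called (adjusted p = 0.0666). Of 17 further pheromone-induced and mating genes, 15 were tested, and PRM5, which encodes a pheromone-regulated membrane protein, was the only one called, in 2 pools. The median of this list was 0.02, 0.23, -0.05 and 0.45. PRM5 had 5.88 and 5.98 CPM in ΔRPL22A, 3.24 and 2.25 CPM in ΔRPL22B and 2.02 and 1.59 CPM in WT in input, with a log2 fold change of ΔRPL22A over ΔRPL22B of 1.12 ± 0.31 (adjusted p = 0.0325). Heavy polysomes held 2.24 and 2.96 CPM in ΔRPL22A, 0.575 and 0.411 CPM in ΔRPL22B and 0.282 and 0.51 CPM in WT of PRM5, with a log2 fold change of 2.34 ± 0.61 (adjusted p = 0.0231). That value rests on few counts, 23 and 13 in ΔRPL22A and 2 and 2 in ΔRPL22B, with 1 and 2 in WT. PRM1, a gene of plasma membrane fusion, was at 1.01 ± 0.33 in input and was not called (adjusted p = 0.0678).

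Of 5 further genes that haploid cells express, HO, which encodes the endonuclease of mating-type switching, was called in all 4 pools and was lower in ΔRPL22A. HO had 3.06 and 2.78 CPM in ΔRPL22A, 7.75 and 8.42 CPM in ΔRPL22B and 8.91 and 7.96 CPM in WT in input, with a log2 fold change of ΔRPL22A over ΔRPL22B of -1.46 ± 0.32 (adjusted p = 0.00645). In monosomes, light polysomes and heavy polysomes the log2 fold change of HO was -2.14 ± 0.43, -2.16 ± 0.42 and -1.16 ± 0.33 (adjusted p = 0.00612, 0.00171 and 0.0345). Among the 5 alpha-specific genes SAG1, which encodes alpha-agglutinin, was called higher in input at 0.94 ± 0.28 (adjusted p = 0.0478), with 68.4 and 72.3 CPM in ΔRPL22A, 38.8 and 34.6 CPM in ΔRPL22B and 2.43 and 3.04 CPM in WT. MF(ALPHA)2, a gene of the alpha pheromone, was called lower in light polysomes at -1.32 ± 0.36 and in heavy polysomes at -1.89 ± 0.37 (adjusted p = 0.0237 and 0.00266). The 7 a-specific genes summed to 8 to 20 counts per library in ΔRPL22A and 7 to 31 in ΔRPL22B. The part of these mating-type transcripts in the differences of the 10 genes was not tested.

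With pool means removed, the log2 CPM of each of the 10 genes was compared over the 24 libraries with the mean of the other 9. Pearson's r was 0.92 for SST2, 0.89 for AGA1 and KAR4, 0.86 for GPA1, 0.82 for FIG2, 0.77 for FUS3, 0.76 for FUS1, 0.73 for FAR1, 0.58 for STE12 and 0.07 for STE4. The libraries share strain and pool, so these values describe the spread between strains as much as that between duplicates. STE4 had the lowest value of the 10. Against the mean of all 10, which includes the gene itself, SST2, AGA1, KAR4, GPA1 and FIG2 ranked 1, 2, 3, 4 and 6 among all tested genes. FUS3 ranked 23, FUS1 31, FAR1 54, STE12 231 and STE4 1785, so other genes followed this mean more closely than these 5 did. Of all other tested genes, the 5 most like the mean of the 10 were PRM5 (r = 0.87), ARG56 (0.85), SYO1 (0.84), STE3 (0.84) and RPF2 (0.84). These 5 were chosen by their pattern over the same 24 libraries, so their differences between the strains are not independent of that choice. STE3, which encodes the a-factor receptor of alpha cells, follows the mating types, at 14.3 and 18.7 CPM in ΔRPL22A, 11.9 and 12.2 CPM in ΔRPL22B and 0 and 0.289 CPM in WT in input. ARG56, which encodes enzymes of arginine synthesis, was called higher in ΔRPL22A than in ΔRPL22B in monosomes, light polysomes and heavy polysomes, by 1.92 ± 0.41, 2.09 ± 0.36 and 1.61 ± 0.34 (adjusted p = 0.00858, 0.000536 and 0.00498). In input it was at 0.89 ± 0.27 and was not called (adjusted p = 0.0529). SYO1, which encodes a nuclear import factor of ribosomal proteins, was called in heavy polysomes alone, at 1.19 ± 0.34 (adjusted p = 0.0368), and RPF2, which encodes a factor of large-subunit assembly, in monosomes alone, at 1.43 ± 0.37 (adjusted p = 0.0245).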

How the data were processed

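Poly(A) RNA of 24 libraries was sequenced, and the authors deposited a table of whole-number counts per gene, with no normalization. Reads were processed with cutadapt 1.4, SAMtools 0.1.19 and RSEM 1.2.18 on build sacCer3, per the submitters' processing notes. The counting tool, and its handling of reads that near-identical genes share, are not stated in the labels or headers. Totals per library ran from 2435632 to 10947937 counts, and the 314212 to 1950344 counts outside the ribosomal DNA set the precision for mRNA.

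Genes were tested with edgeR 4.0.16 in R 4.3.3: a filter on low counts (minimum count 10, minimum total 15), TMM scaling, 1 mean for each of the 12 groups, and the quasi-likelihood test with Benjamini-Hochberg adjustment at 0.05. There were 12 residual degrees of freedom. The SE of a log2 fold change is its size over the square root of the F statistic, and SD is over 2 libraries. DESeq2 1.42.0, other scaling, no filter, other samples in the fit, replicate blocks and leaving out each library were tried as alternatives. On simulated data at the depth of these libraries, the test of ΔRPL22A against ΔRPL22B recovered 35% of 2-fold and 95% of 4-fold changes in input (5328 genes), 19% and 93% in monosomes (5349 genes), 34% and 97% in light polysomes (5329 genes) and 21% and 94% in heavy polysomes (5325 genes). The changed genes of the simulation were drawn only from genes above a minimum mean count in the compared libraries. These shares therefore do not cover genes with fewer counts, such as FIG2 and STE12 in monosomes. The simulation also gave each gene the same variability in every group. The shares for light polysomes therefore do not cover the wider spread between the duplicates of that pool. Duplicates differed by more than sampling noise (chi-square per degree of freedom 1.83 to 34.3), and each library was counted as 1 replicate. The highest values were those of light polysomes in ΔRPL22A (20.0) and ΔRPL22B (34.3), the groups compared in that pool.

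The 10 genes are all named. Of the other lists, genes called between ΔRPL22A and ΔRPL22B in any pool are named, otherwise up to 4 a list with the smallest adjusted p in input, and the 5 genes with the pattern most like that of the 10. Of the genes this rule names, 1 is not reported here. The members and lists were chosen with earlier results of these data known. Gene positions and promoter sequences are from RefSeq R64, in which starts are start codons and lengths are coding lengths, and 5908 of the 6369 genes matched.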

Additional observations from a re-analysis of the deposited data

How the results depend on the processing

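Between ΔRPL22A and ΔRPL22B the 12 calls among the 10 genes kept their direction in every fit without a library. Both ΔRPL22A libraries lay above both ΔRPL22B libraries for each call, so this was largely fixed in advance. The number of calls depended on the fit. In input 4 genes were called with relative log expression scaling, 4 without the ribosomal DNA rows and 4 with only the compared groups. Over all genes these fits gave 354, 372 and 713 calls in input, against 283 in the fit used above. In monosomes 5 were called with only the compared groups and 5 without the 4 libraries nearest to another pool, an alternative chosen after seeing the data, and in light polysomes 0 and 1. ΔRPL22B against WT gave 5 in input with only the compared groups and 2 without the 4 libraries. Heavy polysomes against monosomes gave 4 with DESeq2 averaged over strains, 7 with only the compared groups and 8 without the 4 libraries in ΔRPL22A, 2 without the 4 libraries in ΔRPL22B, and 1 in WT without the filter, with the replicate block by strain, with DESeq2 and with only the compared groups. Over all genes, with only the compared groups, ΔRPL22A against ΔRPL22B gave 713 calls in input, 512 in monosomes, 1 in light polysomes and 763 in heavy polysomes, and without the 4 libraries 535 in monosomes and 764 in heavy polysomes. The cause was not tested. For the alternative fits against WT and of heavy polysomes against monosomes, the number of calls over all genes is not given here. Those counts are therefore not read as particular to the 10 genes.

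Without single libraries, which leaves fewer samples, the calls of ΔRPL22A against ΔRPL22B ranged from 0 to 1, 0 to 2, 1 to 1 and 1 to 4 over the 4 pools, those against WT from 3 to 5, 2 to 6, 3 to 3 and 4 to 5 in ΔRPL22A and from 0 to 1 in ΔRPL22B. Pool comparisons ranged from 5 to 8 (monosomes to input), 4 to 6 (light polysomes to input), 3 to 5 (heavy polysomes to input) and 4 to 8 (heavy polysomes to monosomes), and within strains from 1 to 4 in ΔRPL22A and from 0 to 1 in ΔRPL22B and WT. Over all genes the calls numbered 38 to 490 (input), 13 to 70 (monosomes), 173 to 671 (light polysomes) and 43 to 176 (heavy polysomes).

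The values of ΔRPL22A against ΔRPL22B that turned sign were ones not called. FAR1 turned in monosomes to -0.014 with relative log expression scaling, -0.0014 with the replicate block by strain, -0.012 with DESeq2 and -0.055 with only the compared groups, and in light polysomes to -0.049 with only the compared groups. In light polysomes AGA1 turned to 0.34 and STE4 to -0.0011 without the 4 libraries, GPA1 to -0.0061 with only the compared groups, and STE12 to 0.032 with relative log expression scaling, 0.0026 without the ribosomal DNA rows and 0.063 with DESeq2. STE4 in heavy polysomes turned to 0.016 with relative log expression scaling, 0.048 without the ribosomal DNA rows and 0.0204 with DESeq2. Without single libraries FAR1 lay between -0.0399 and 0.0559 in input, between -0.146 and 0.154 in monosomes, between -0.159 and 0.188 in light polysomes and between -0.0221 and 0.314 in heavy polysomes. GPA1 lay between -0.0522 and 0.734 in input and between -0.183 and 0.398 in light polysomes, and AGA1 between -0.47 and 0.547 in light polysomes. STE12 lay between -0.417 and 0.388 in light polysomes and between -0.444 and 0.799 in heavy polysomes, and STE4 between -0.328 and 0.301 in heavy polysomes.

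Replicate numbers did not pair the libraries: deviations of same-numbered ΔRPL22A and ΔRPL22B libraries correlated at -0.02, 0.08, -0.40 and 0.01 over the 4 pools, and over all pairs of strains within a pool and of pools within a strain the correlations ran from -0.40 to 0.21. With the replicate block, FUS3 in heavy polysomes was not called (adjusted p = 0.0519), nor with the block by strain (adjusted p = 0.056). The share of all calls that were higher in ΔRPL22A was 44.2% in input, against 59% with relative log expression scaling, 61% without the ribosomal DNA rows and 67.5% with DESeq2. It was 58.4% in light polysomes, against 77.5% with DESeq2, and 45.3% in heavy polysomes, against 56.2% without the ribosomal DNA rows. The planned fit without libraries closer to another pool than to their duplicate could not be run, since 0 libraries qualified.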

Other observations

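The pheromone response element core was also counted in the promoters of the other lists, over the same window and on both strands. TGAAACA was found in 8 of 17 further pheromone-induced and mating genes, 3 of 19 further signalling genes, 1 of 5 further haploid genes, 5 of 7 a-specific genes and 1 of 5 alpha-specific genes, against 7.475% of all windows. The shorter TGAAAC, which TGAAACA contains, was found in 6 of the 10 pheromone pathway and response genes, against 19.85% of all windows.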
